A study of Rattus with 12 samples.

Results

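Transcripts of fibrillar collagen, elastin and a collagen-binding integrin subunit were followed in 12 cultures of rat brain cells with or without fentanyl, an opioid agonist. Members were the rows of the count table with the symbols Col1a1, Col1a2, Col3a1, Col5a1, Col5a2, Col6a1, Col6a2, Eln and Itga11. Of these 9 genes, 8 had a row and all 8 passed the filter on low counts, out of 12271 genes kept of 17337 listed. Col6a1 was not analysed here. The text of the study names Col3a1 and Itga11 among genes it picked from these same cultures, so their direction is not independent evidence.

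All cultures were Sprague Dawley co-cultures of cortical neurons, astrocytes and oligodendrocyte precursor cells, the cells that mature into myelin-forming oligodendrocytes. Untreated cultures A, G, M and P received no fentanyl, cultures B, H, N and Q received 0.01 μM (low dose), and cultures C, I, O and R received 10 μM (high dose) for 4 days. Consecutive letters of the culture labels group the doses into 4 letter sets, called here after their untreated member: the A set (with B and C), the G set (with H and I), the M set (with N and O) and the P set (with Q and R). No label and no method of the study says what the sets stand for, so they are used for description only. The labels do not say whether the 4 cultures of a dose came from separate preparations, so p-values measure only the spread between these cultures.

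Fibrillar collagens are secreted as triple helices that assemble into the fibrils of connective tissue. Type I collagen joins Col1a1 and Col1a2 chains, Col3a1 gives type III collagen of fine fibrils, and the type V chains Col5a1 and Col5a2 help fibrils to start and limit their width. Col6a2 is a chain of type VI collagen, which forms beaded filaments near cells, Eln encodes the elastin precursor, and Itga11 encodes an integrin subunit by which connective tissue cells hold fibrillar collagen. In brain these genes are known chiefly from the meninges and from fibroblasts and mural cells around vessels, and are low in neurons and glia.

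Total counts per culture ranged from 12059872 to 17023909 in untreated, from 12907388 to 16512387 in low dose and from 15102785 to 24813893 in high dose cultures. Untreated culture G went against its label of a neuron co-culture: 11 neuron markers summed to 247 CPM (the count scaled to library size by the TMM method) there and to between 2970 and 4330 CPM in the other 11 cultures, and none of the 11 was at 0 in any culture. Results that rest on G, or on low dose culture N, in which the collagens were also high, are given with and without them.

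Type I collagen was high in G and N, intermediate in M and O, and low in the remaining cultures. Col1a1 stood at 5.08, 502.5, 214.4 and 3.83 CPM in untreated cultures A, G, M and P, at 6.46, 13.5, 1265 and 14.1 CPM in low dose cultures B, H, N and Q, and at 7.70, 4.16, 102.1 and 17.8 CPM in high dose cultures C, I, O and R. All 3 doses overlapped, and each dose held at least 1 culture under 7 CPM. Col1a2, its partner chain, stood at 66.6, 690.6, 245.7 and 48.4 CPM in A, G, M and P, at 76.8, 49.4, 1359 and 53.4 CPM in B, H, N and Q, and at 89.2, 48.1, 137.5 and 68.0 CPM in C, I, O and R. The order of the 4 highest cultures was N, G, M and O for both chains. In N, Col1a1 alone took 0.128% of all counts (95% Wilson interval 0.127 to 0.130, counting error only), against 0.000651% (0.000526 to 0.000806) in low dose culture B.

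Type III collagen had G, not N, at the top. Col3a1 was measured at 1.71, 380.5, 8.57 and 1.66 CPM in the untreated cultures A, G, M and P, at 1.54, 4.32, 232.7 and 4.06 CPM in the low dose cultures B, H, N and Q, and at 3.32, 2.56, 22.4 and 3.31 CPM in the high dose cultures C, I, O and R. Outside G and N its highest value was that of O, and the other 9 cultures stayed between 1.54 and 8.57 CPM. The 20 counts in B gave a share of 0.000155% (95% Wilson interval 1e-04 to 0.000239), so differences among the low cultures rest on few counts.

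**Figure D1:**
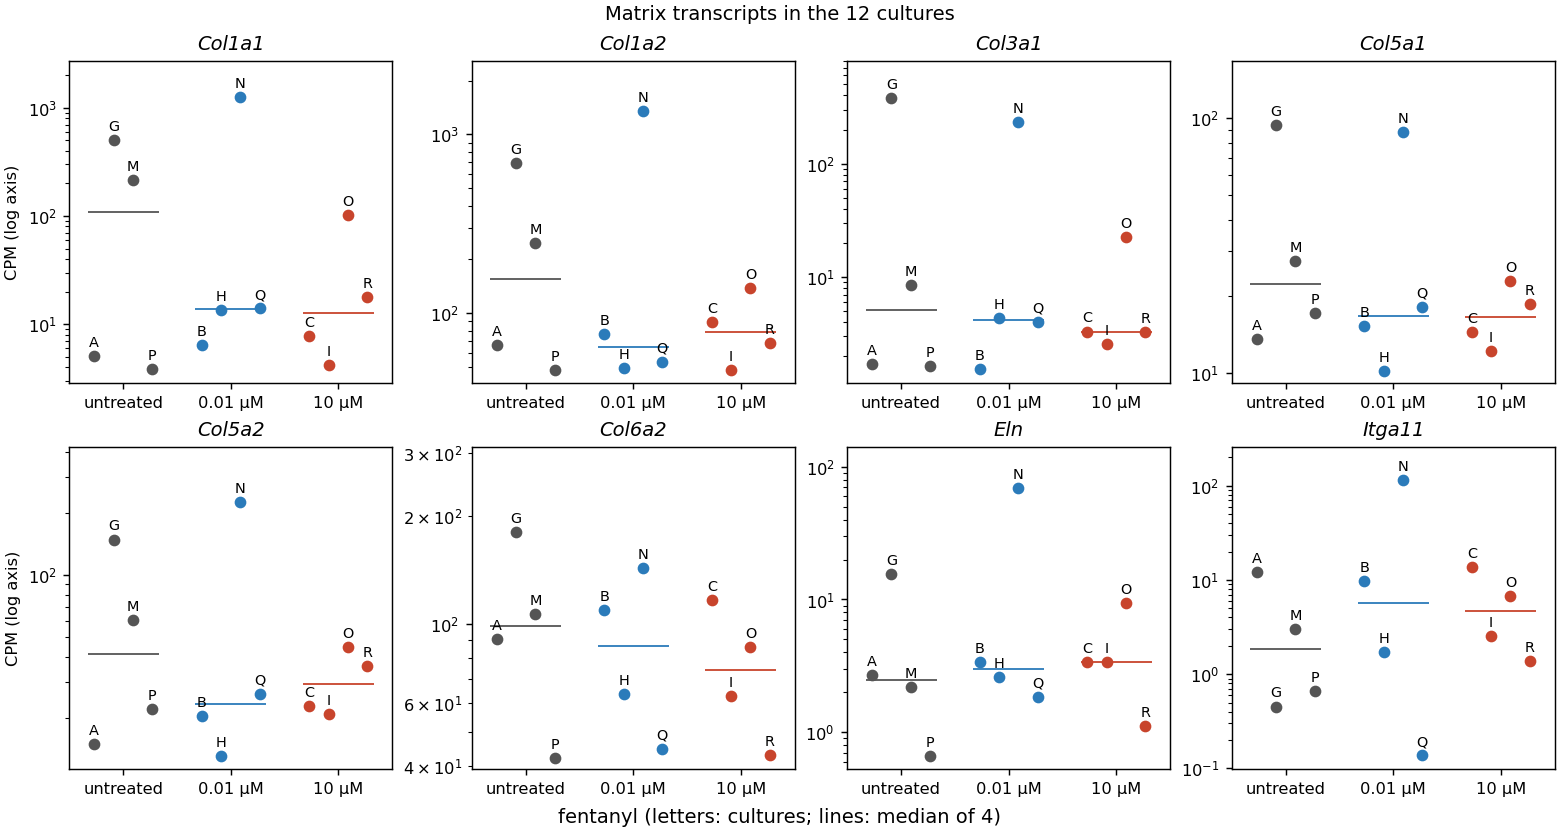
CPM of the 8 genes (log axis) in untreated (grey), 0.01 μM (blue) and 10 μM (red) cultures, each point a culture with its letter and each line the median of 4 cultures. G and N lie above the other 10 cultures for every gene but Itga11, which was at 0.454 CPM in G and at 114.5 CPM in N.

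The type V chains had the same 2 cultures at the top over a narrower range. Col5a1 was at 13.6, 93.9, 27.5 and 17.2 CPM without fentanyl (A, G, M, P), at 15.2, 10.2, 88.3 and 18.2 CPM at the low dose (B, H, N, Q), and at 14.5, 12.2, 22.9 and 18.7 CPM at the high dose (C, I, O, R). G and N differed little for this chain, and the other 10 cultures lay between 10.2 and 27.5 CPM. Col5a2 was at 14.99, 149.1, 60.1 and 22.3 CPM without fentanyl, at 20.5, 13.0, 227.8 and 26.3 CPM at the low dose, and at 23.0, 21.1, 44.4 and 36.02 CPM at the high dose, in the same order of cultures. Its gene lies next to Col3a1 on chromosome 9 of the RefSeq assembly GRCr8. M and O came after N and G for Col5a2, as they did for Col5a1.

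Col6a2 varied least of the 8 genes. Its values were 90.7, 180.7, 106.2 and 42.2 CPM in A, G, M and P, 109.4, 63.6, 142.9 and 44.7 CPM in B, H, N and Q, and 116.3, 62.8, 86.1 and 43.0 CPM in C, I, O and R. G and N led again, but the next cultures were C and B. The lowest culture of every dose was the one of the P set, at 42.2 to 44.7 CPM.

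Elastin was highest in N. Eln was measured at 2.71, 15.6, 2.19 and 0.665 CPM in A, G, M and P, at 3.39, 2.59, 69.4 and 1.86 CPM in B, H, N and Q, and at 3.38, 3.36, 9.48 and 1.12 CPM in C, I, O and R. N stood 4.44-fold above G, the next culture, and the lowest value rested on 8 counts in P.

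Itga11 differed from the matrix genes. It was at 12.3, 0.454, 3.02 and 0.665 CPM in A, G, M and P, at 9.77, 1.73, 114.5 and 0.138 CPM in B, H, N and Q, and at 13.7, 2.56, 6.77 and 1.36 CPM in C, I, O and R. After N came C, A and B, which form a letter set, and G was the next to lowest culture with 7 counts. Q had 2 counts, under the floor of 3 counts taken as the limit of this depth. No ratio of Q to another culture and no set difference with Q is given in the text for this gene. Its fitted log2 fold changes in the comparisons with the low dose do include Q.

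G and N therefore carried different mixtures of these transcripts. N was 2.52-fold above G for Col1a1, 1.97-fold for Col1a2, 1.53-fold for Col5a2, 4.44-fold for Eln and 252-fold for Itga11. G was 1.64-fold above N for Col3a1, 1.26-fold for Col6a2 and 1.06-fold for Col5a1. These are ratios of 1 culture to 1 culture and have no replicate check. Against the median of the other 10 cultures, G was 115-fold and N 70.2-fold higher for Col3a1, and G was 47.5-fold and N 120-fold higher for Col1a1. For Col6a2 the same ratios were 2.42 in G and 1.91 in N. All 8 genes together took 0.202% of the counts in G and 0.355% in N, 0.0671% in M and 0.0443% in O, and between 0.0137% and 0.0273% in the other 8 cultures.

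G was the highest untreated culture for 7 of the 8 genes, N the highest low dose culture for 8 and O the highest high dose culture for 6. Over all 12271 genes, G was the highest untreated culture for 35.3%, N the highest low dose culture for 22% and O the highest high dose culture for 19.4%. Both G and N led their dose for 7 of the 8 genes and for 14.7% of all genes. G and N were set apart from the outset in these same data, and most of the genes varied together over the cultures. These counts therefore describe the values and are not separate evidence, and those of the other lists below are read in the same way. The order of M and O was less regular, and they were the next 2 cultures for 5 of the 8 genes.

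Markers of other cell types moved with these values in G and N, and in different lists. The 9 fibroblast markers, all with a row and 6 kept, summed to 554 CPM in G, 769 CPM in N and between 287 and 452 CPM elsewhere. In G, the small proteoglycan genes Dcn and Lum had 1053 and 537 counts, the transcription factor gene Foxc1 had 483 and the transporter gene Slc6a13 had 617. In N the same 4 genes had 9, 3, 8 and 0 counts, close to the other 10 cultures. Ogn, also a proteoglycan gene, had 5584 counts in N and 2246 in G, against 50 to 1728 elsewhere. Mgp, a matrix protein gene and the most abundant of the list, went the other way in G, where it was lowest at 220 CPM, and was at 400 CPM in N and 226 to 404 CPM elsewhere. These genes were picked from the list after their values were seen.

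The 11 mural cell markers, 7 of them kept, summed to 551 to 650 CPM in A, B and C, the set with the highest Itga11 after N, to 349 CPM in N, to 116 CPM in G and to between 37.9 and 96.5 CPM in the other 7 cultures. Within that list, Acta2, a smooth muscle actin gene, had 1676 counts in N and 19 in G, while Pdgfrb, a growth factor receptor gene of mural cells and fibroblasts, had 523 in N and 1108 in G, against 109 to 232 elsewhere. Tagln, an actin-binding protein gene of contractile cells, had 10254, 7700 and 8578 counts in A, B and C. At 605, 593 and 508 CPM it made up most of the sum there. Cnn1 was also higher there, at 3.97 to 7.23 CPM, than in the other cultures except N. Myh11 was lower there, at 18.1 to 18.8 CPM, than in P, Q and R, at 24.0 to 26.9 CPM. Rgs5, Des, Kcnj8, Abcc9, Notch3 and Vtn stayed at or under 3.18 CPM in every culture. The 10 endothelial markers, 6 of them kept, summed to 73.4 CPM in G and to between 9.50 and 22.4 CPM elsewhere, N included. Of these, Cdh5 (28.5 CPM in G), Flt1, Kdr, Tie1 and Emcn were highest in G, while Pecam1, Cldn5, Tek, Vwf and Esam were not. Pecam1 was at 0.778 CPM in G and 4.89 CPM in N. The 10 microglia markers summed to 1180 CPM in G, 1280 CPM in N, 38.2 to 46.5 CPM in P, Q and R, and 322 to 872 CPM in the other 7 cultures. In these bulk samples fewer cells of a type and less RNA per cell cannot be told apart, and the part of these cells in the matrix values was not tested.

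Low dose and untreated cultures were compared first, to ask whether the lower concentration moved matrix transcripts. The fit gave all 8 genes a log2 fold change above 0, with a median of 0.967 against 0.013 over all 12271 genes, but 0 members were called with the thresholds of 0.05 on the adjusted p and 0.5 on the size of the log2 fold change. Across all genes the edgeR quasi-likelihood test with 1 factor of unwanted variation called 0% here. The differences were 0.81 ± 1.69 (SE) for Col1a1, 1.12 ± 0.87 for Col1a2, 0.45 ± 0.46 for Col5a1 and 0.79 ± 0.68 for Col5a2. Col6a2 had 0.10 ± 0.39 and Itga11 had 3.10 ± 1.94, the largest value with the largest error. Col3a1 had 2.43 ± 1.09 (unadjusted p = 0.0486, edgeR) and Eln 2.56 ± 1.03 (unadjusted p = 0.0314), and both had an adjusted p of 1. These were the 2 members with an unadjusted p under 0.05, a level reached by 91 genes or 0.742% of all. That share is smaller than the level itself, as it was in the other comparisons, so the p-values of this fit ran high. The 2 members are therefore not read as an excess, nor the absence of calls as an absence of change. DESeq2 called 0, 3 and 1 genes in this comparison and in those of high dose with untreated and with low dose, none of them a member. With SEs of up to 1.94, a count of 0 called members does not show that these genes kept their level.

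The direction of this comparison rested on N. Col1a1 averaged 181.5 ± 235.8 CPM (SD, n = 4) in untreated and 324.8 ± 627.0 CPM (SD, n = 4) in low dose cultures, and without G and N the means were 74.4 ± 121.2 (SD, n = 3) and 11.3 ± 4.24 CPM (SD, n = 3). The factor of unwanted variation was largely a contrast of G with the rest, as it was 1 in G after scaling and between -0.238 and 0.166 in the other 11 cultures. Without N alone, 1 of 8 genes was above 0 (Eln) and the median was -0.408. Without G alone, all 8 were above 0 and the median was 1.57. With G and N both left out, the differences were -2.75 ± 1.66 (SE) for Col1a1, -1.02 ± 0.60 for Col1a2, -0.30 ± 1.02 for Col3a1 and 0.59 ± 0.62 for Eln, with a median of -0.558 over the 8 genes and an adjusted p of 1 in edgeR for each. Without the factor 5 of 8 genes were above 0, with a median of 0.386, and with a block by letter sets in its place 2 of 8, with a median of -0.194. No gene separated the doses, as 0 of the 8 had untreated and low dose cultures without overlap, against 0.407% of all genes.

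**Figure D2:**
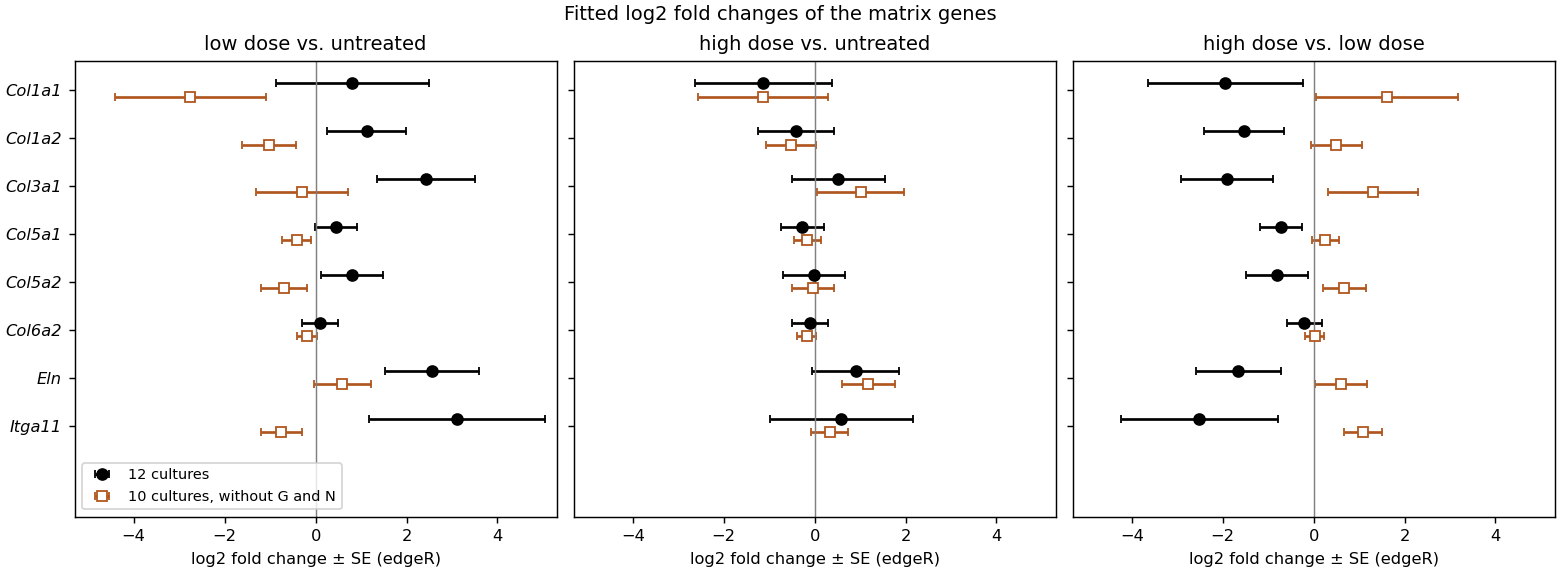
Fitted log2 fold changes of the 8 genes (horizontal axis, error bars ± SE) for the 3 comparisons, with all 12 cultures (black circles) and without G and N (open squares). In the panels that include the low dose, most symbols change sides of 0 when G and N are left out, as for Col1a1 from 0.81 to -2.75. With a block by letter sets in place of the factor and without G and N (not drawn), Col1a1 had 0.62 between low dose and untreated cultures.

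In the fit with the factor, high dose and untreated cultures differed less than low dose and untreated cultures. The median was -0.058 (0.003 over all genes), 3 of the 8 genes were above 0, and 0 were called, with 0% called over all genes. Col1a1 had -1.13 ± 1.504 (SE), Col1a2 -0.41 ± 0.84, Col3a1 0.52 ± 1.02, Eln 0.90 ± 0.96 and Itga11 0.59 ± 1.58. Col5a1, Col5a2 and Col6a2 lay between -0.27 and -0.01. Each of the 8 differences was smaller than its own SE. An unadjusted p under 0.05 was found for 0 of the 8 genes and for 1.19% of all, and cultures without overlap for 0 of the 8 genes and for 0.685% of all.

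Leaving out G and N kept 3 of the 8 genes above 0 in this comparison, with a median of -0.096. Eln then had 1.18 ± 0.58 (unadjusted p = 0.0742, edgeR, adjusted p = 0.998) and Col3a1 1.01 ± 0.95. The choice of untreated culture M mattered more: without it 7 of the 8 genes were above 0, the median was 0.402 and Col1a1 moved from -1.13 to 1.46. Leaving out high dose culture I moved the median to 0.073, with 4 of 8 above 0. Without the factor of unwanted variation, 1 of 8 genes was above 0, the median was -1.07 and Col3a1 moved to -3.64. With a block by letter sets in its place the median was -0.768. Between low dose and untreated cultures these medians were 0.386 and -0.194, smaller in size, so the order of the comparisons depended on the factor.

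High dose and low dose cultures were compared to ask whether the concentrations differed from each other. All 8 genes were below 0, with a median of -1.60 (-0.009 over all genes), and 0 were called, with 0% called over all genes. Itga11 had -2.51 ± 1.72 (SE), Col1a1 -1.94 ± 1.70, Col3a1 -1.91 ± 1.01, Eln -1.66 ± 0.94 and Col1a2 -1.53 ± 0.89. Col5a2 and Col5a1 had -0.81 ± 0.69 and -0.71 ± 0.47, and Col6a2 -0.20 ± 0.38. None reached an unadjusted p of 0.05, against 1.17% of all genes, and 0 of the 8 had cultures without overlap, against 1.19% of all genes.

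All 8 signs turned when N was left out, and the median became 0.429. Without G and N it was 0.632, from 0.02 ± 0.21 (SE) for Col6a2 to 1.62 ± 1.57 for Col1a1. Itga11 then had 1.08 ± 0.42 (unadjusted p = 0.0306, edgeR, adjusted p = 0.680), a value that includes the 2 counts of Q. High dose culture O, at 102.1 CPM of Col1a1, then had no low dose culture of its letter set. With a block by letter sets in place of the factor, the median without G and N was 0.035, with 5 of 8 genes above 0. Col1a1 had -0.55 ± 0.50 in that fit. Leaving out any other culture kept all 8 genes below 0, with medians between -2.06 and -1.42. Low dose culture N enters this comparison and the first, and untreated G the first and second, so the 3 sets of values are not independent.

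**Figure D3:**
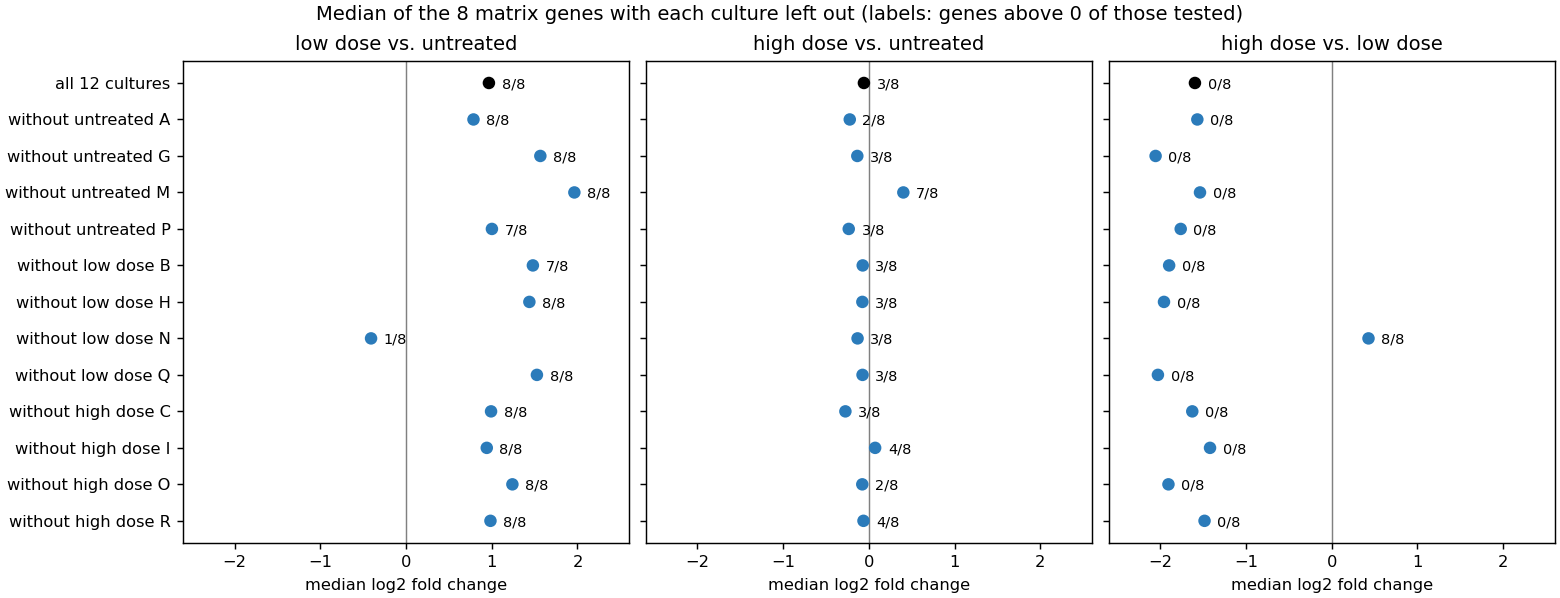
Median fitted log2 fold change of the 8 genes (horizontal axis) with all 12 cultures (black) and with each culture left out (blue), for the 3 comparisons, with the number of genes above 0 printed beside each point. Leaving out N moves the median from 0.967 to -0.408 in the first panel and from -1.60 to 0.429 in the last.

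Differences within the letter sets, in log2(CPM + 1), ran in opposite directions. Between low dose and untreated cultures, the difference of Col1a1 was 0.30 in the A set, -5.12 in the G set, 2.56 in the M set and 1.65 in the P set. For Col3a1 it was -0.09, -6.16, 4.61 and 0.93 in the same order. Eln gave 0.24, -2.21, 4.46 and 0.78. Itga11 gave -0.30, 0.91 and 4.85 in the A, G and M sets. The set with N gave the highest of these differences for all 8 genes, and the set with G the lowest for all but Itga11. In the A set, which holds neither, the 8 differences lay between -0.30 and 0.43.

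Between high dose and untreated cultures, Itga11 was the only member above 0 in all 4 letter sets, by 0.15, 1.29, 0.95 and 0.51 in the A, G, M and P sets. This is 1 of 8 genes, where 5.22% of all genes were higher in all 4 sets, and Itga11 overlapped between the doses. The mean over the sets was 0.73 ± 0.50 (SD, n = 4). This scale understates the change of low genes, and in the G set the untreated value rested on 7 counts. Col5a1 gave 0.09, -2.85, -0.26 and 0.11, and Col6a2 gave 0.35, -1.51, -0.30 and 0.02. In the P set all 8 genes were above 0, from 0.02 for Col6a2 to 1.96 for Col1a1, and in the A set from 0.09 for Col5a1 to 0.67 for Col3a1. Those sets hold neither G nor N. In this comparison the M set uses neither as well, since it sets O against M, and its differences went both ways. There Col1a1 (-1.06), Col1a2 (-0.83), Col5a1, Col5a2 (-0.43) and Col6a2 were below 0, and Col3a1 (1.29), Eln (1.71) and Itga11 above 0. The share of all genes above 0 in single sets was not taken.

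**Figure D4:**
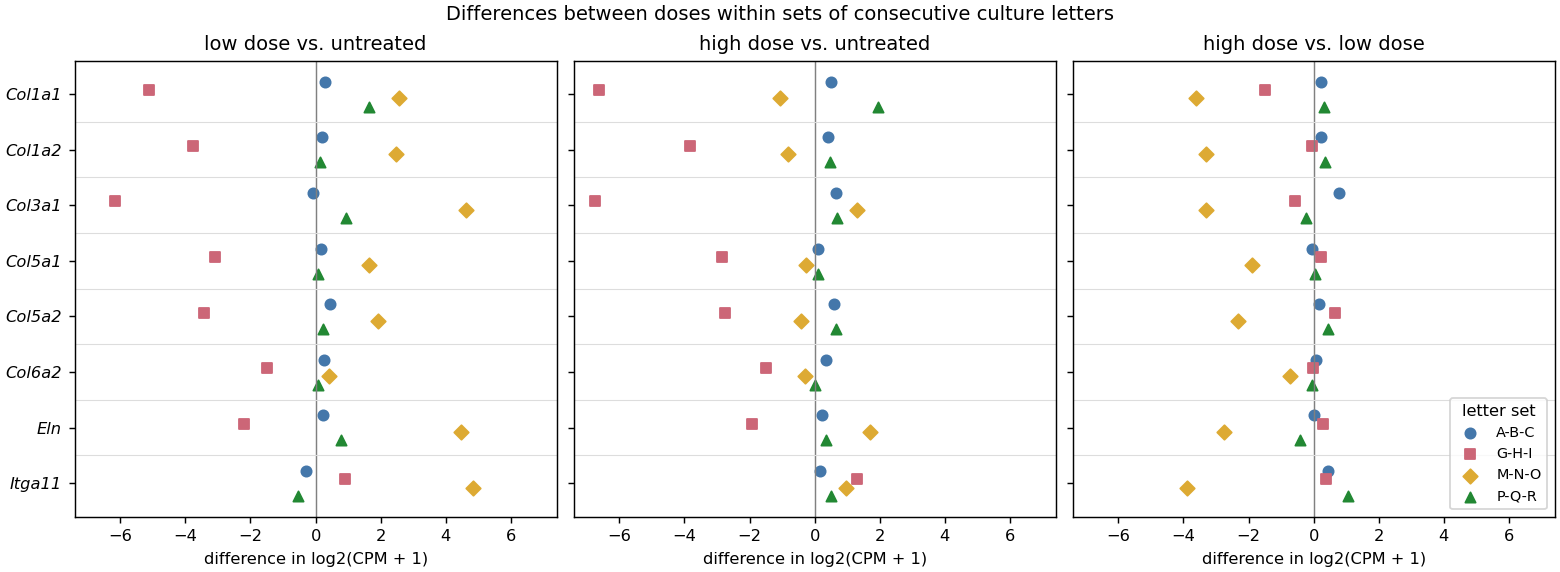
Difference in log2(CPM + 1) between doses for each gene (rows) within the 4 sets of consecutive letters (circles for the A set, squares for the G set, diamonds for the M set and triangles for the P set). Squares lie far to the left against untreated except for Itga11, and diamonds lie to the right in the first panel, up to 4.85 for Itga11, and to the left in the last, and the Itga11 triangles of the first and last panels rest on 2 counts in Q.

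Between high and low dose, the M set gave -3.62 for Col1a1, -3.30 for Col1a2, -3.32 for Col3a1, -3.89 for Itga11 and -0.72 for Col6a2. In the A set the 8 differences lay between -0.07 and 0.77, and the P set gave values from -0.43 for Eln to 0.44 for Col5a2 over the 7 genes other than Itga11. Outside the M set, no set gave a difference past -1.49, which was that of Col1a1 in the G set.

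The letter sets held more of the variance than the doses did. Without G and N, they held 87.0% of the variance of log2(CPM + 1) of Col1a1, 89.1% of Col1a2, 94.5% of Col5a1, 96.0% of Col6a2 and 92.1% of Itga11. Doses held 2.43%, 13.0%, 14.7%, 0.885% and 7.10% of it in the same genes, and the shares overlap because the doses and sets were not balanced. Col3a1 and Col5a2 had 79.2% and 81.4% by set, and 10.4% and 17.2% by dose. Eln had the lowest share by set, at 59.6%, and the highest by dose, at 20.9%. The median gene of the table had 78.6% by set and 9.63% by dose, so this pattern was shared by other genes. With all 12 cultures the sets held 27.4% for Col5a1 to 64.8% for Col6a2, and 55.7% for the median gene. For most members G and N lay far from their own sets, so leaving them out raised the shares by set. With 4 sets and 3 doses, sets take a larger share than doses even without any effect.

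The spread of the type I and III chains was among the widest of all genes. The SD of log2(CPM + 1) between cultures of the same dose, pooled over the 3 doses, was taken for each gene. It was 3.01 for Col1a1, 2.70 for Col3a1, 2 for Itga11, 1.70 for Col1a2 and 1.59 for Eln. Col5a2 had 1.36, Col5a1 1.05 and Col6a2 0.743, against 0.310 for the median gene. For Col1a2 it was above that of 99.1% of genes and for Col6a2 above that of 85.4%. Without G and N, Col1a1 kept an SD of 2.08 (above 99.8% of genes) and Itga11 of 1.41 (98.8%), while Col5a1 fell to 0.419 (75.6%).

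Ratios between members were read across cultures, since the count ratio of a pair in any culture also carries both transcript lengths. For the type I chains, Col1a1 over Col1a2 was 0.873, 0.931 and 0.743 in M, N and O, and 0.728 in G. In A, B and C it was 0.0762, 0.0842 and 0.0863. P had 0.0790 where Q and R had 0.264 and 0.261, and H had 0.273 where I had 0.0865. The ratio was thus nearly constant in the A set and in the M set across doses, and high in the 4 cultures with most type I collagen.

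Col3a1 over Col1a1 was 0.757 in G, 0.0400 in M, 0.184 in N and 0.220 in O, and lay between 0.186 and 0.614 elsewhere. The untreated cultures G and M, both high in Col1a1, were thus the highest and the lowest of all 12. Itga11 over Col1a2 was 0.184, 0.127 and 0.154 in A, B and C, 0.0843 in N and 0.000657 in G. Eln over Col1a2 kept to a narrower range, from 0.00893 in M to 0.0698 in I.

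**Figure D5:**
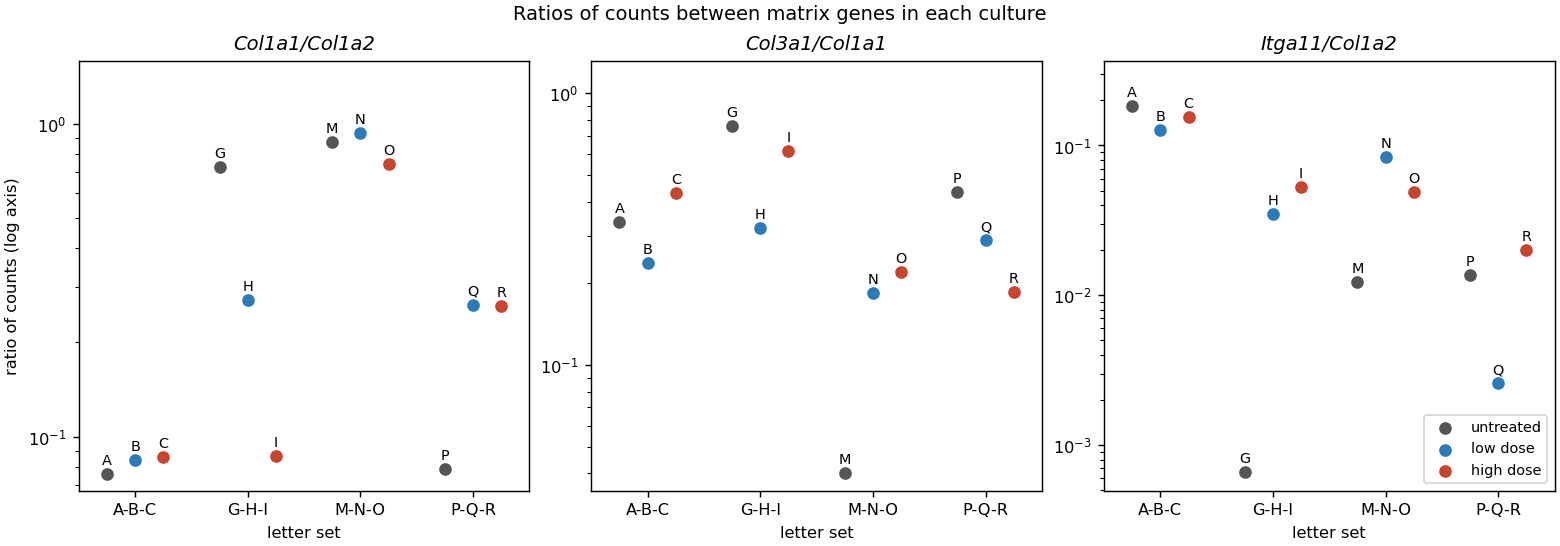
Ratios of counts (log axis) of Col1a1 to Col1a2, Col3a1 to Col1a1 and Itga11 to Col1a2 in each culture, by letter set and coloured by dose. Col1a1 over Col1a2 is near 0.08 in A, B and C and between 0.743 and 0.931 in M, N and O, and Itga11 over Col1a2 is lowest in G, at 0.000657 (the point of Q rests on 2 counts).

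Pairs of members were described by Pearson's r of log2(CPM + 1) over the 12 cultures, which share the extreme values of G and N. It was 0.974 for the type V chains Col5a1 and Col5a2, 0.945 for the type I chains and 0.923 for the neighbours Col3a1 and Col5a2. Over the 10 cultures without G and N these were 0.941, 0.865 and 0.677. Itga11 had 0.318 with Col1a1 over 12 cultures and -0.02 over 10, and it was closest to Col6a2 over 10 cultures, at 0.878. Against the mean standardised profile of the 8 genes, Col1a2 had the highest r (0.988 over 12 cultures and 0.945 over 10) and Itga11 the lowest (0.549 and 0.452).

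The genes outside the list most like that profile over 12 cultures were Fndc1 (r = 0.975), Ltbp2 (0.974), Cpz (0.972), Scara5 (0.962), Dse (0.958), Rarres2 (0.957), Fstl1 (0.951) and Crim1 (0.950). Ltbp2, an elastic fibre protein that binds fibrillin, was at 60.6 CPM in G, 302 CPM in N, 19.5 CPM in M and 31.6 CPM in O, and between 0.494 and 4.84 CPM elsewhere. Fstl1, a secreted glycoprotein gene, was at 226 CPM in G, 245 CPM in N and 66.0 to 114 CPM elsewhere. Over the 10 cultures the list was Ltbp2 (0.967), Epha2 (0.954), Sfrp2 (0.940), Sncg (0.934), RGD1564114 (0.934), Cpz (0.933), Spata18 (0.932) and Col8a1 (0.929). Ltbp2 and Cpz stood in both. Sfrp2, a secreted Wnt inhibitor gene, was at 11.5 CPM in M and 16.8 CPM in O but at 1.56 CPM in G and 1.44 CPM in N, where the collagens were highest.

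Other genes of collagen and elastic fibre assembly were read from 5 lists, and 0 were called in either direction in any comparison, beside the 0% called over all genes. Of 15 other chains of fibrils and filaments, 8 were tested, with medians of -0.201 between low dose and untreated, -0.322 between high dose and untreated and -0.258 between high and low dose cultures. Without G and N these were 0.057, -0.093 and -0.068, so the first turned. Both G and N led their dose for 0 of these 8 chains and for 14.7% of all genes. Some of these chains were low, as Col2a1, which ran from 0.195 CPM in G to 1.72 CPM in C. Members and lists were chosen with earlier results of these data known, so this count is not a contrast with the members. Col16a1, a fibril-associated collagen, was at 138 ± 57.5, 129 ± 43.7 and 116 ± 26.9 CPM (SD, n = 4) in untreated, low and high dose cultures, and Col11a1, a fibrillar chain, at 64.3 ± 29.6, 76.0 ± 65.6 and 51.2 ± 18.7 CPM. The 3 doses overlapped for both genes.

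Of 27 genes of procollagen folding and processing, 24 were tested, with medians of 0.095, -0.098 and -0.159 in the same order of comparisons, which turned to -0.009, 0.026 and 0.030 without G and N. Both G and N led for 11 of the 24 (45.8%, against 14.7% of all genes). Sparc, a collagen-binding protein also made by glia, was at 1330 CPM in G and 1490 CPM in N, below the 1570 to 1630 CPM of A, B and C. P4hb, a subunit of the prolyl hydroxylase that stabilises the collagen helix, was at 964 CPM in G, 669 CPM in N and 365 to 642 CPM elsewhere.

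Of 17 elastic fibre partners, 14 were tested, with medians of 0.127, -0.298 and -0.450, and of -0.029, -0.200 and -0.005 without G and N. With all cultures, 2 of the 14 had an unadjusted p under 0.05 (edgeR), both lower at the high than at the low dose, against 1.17% of all genes in either direction. As that share is smaller than the level itself, the 2 are not read as an excess. Both G and N led for 8 of the 14 (57.1%). Ltbp3, which binds latent TGF-beta, was at 274 CPM in G, 186 CPM in N and 82.4 to 191 CPM elsewhere, and Ltbp4, its relative needed for elastic fibres, at 65.1 CPM in G, 76.2 CPM in N and 62.5 to 89.3 CPM elsewhere. Ltbp4 thus kept a narrow range, with G and N inside it.

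Of 8 collagen receptors, 6 were tested, with medians of -0.055, -0.162 and -0.124 (-0.166, -0.040 and 0.110 without G and N), and both G and N led for 4 of the 6 (66.7%). Itgb1, the subunit with which Itga11 pairs, was highest in G, at 867 CPM, then in N, at 442 CPM, and lay between 311 and 388 CPM elsewhere, while Itga11 itself was next to lowest in G. Ddr1, a collagen receptor of epithelial and glial cells, lay between 271 and 387 CPM in all 12 cultures. Of 13 genes of TGF-beta signalling, a known inducer of collagen genes, 12 were tested, with medians of -0.057, -0.025 and 0.050 (-0.119, 0.116 and 0.222 without G and N), and both G and N led for 5 of the 12 (41.7%). Smad4, the shared signal carrier, lay between 69.3 and 112 CPM.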

How the data were processed

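RNA of 12 rat co-cultures was poly(A)-selected and made into libraries without strand marking. Per the labels and the study's methods, the authors used STAR with build rn6 and featureCounts, and deposited raw counts per gene with no normalization. Annotation, strand setting and treatment of multiply mapped reads are not given in the sources used here, so reads of overlapping or antisense genes cannot be told apart.

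Cultures were grouped by the dose in their labels. In R 4.3.3, counts were scaled by TMM and filtered by filterByExpr (edgeR 4.0.16). The study uses RUVseq and edgeR without stating the RUV procedure or how many factors were removed. Here 1 factor was estimated by the RUVs formula, written anew, from the replicates of each dose. It held 41.0% of the variation within doses. The quasi-likelihood test was fitted to all 12 cultures and all genes kept, with Benjamini-Hochberg adjustment. Calls needed a log2 fold change over 0.5 in size and an adjusted p below 0.05. SEs come from the quasi-likelihood statistics. CPM are scaled to the TMM library size, and log2 values use a pseudocount of 1. Intervals (95%, Wilson) cover counting error only. The test was checked on simulated counts with a log2 change of 2 planted in 200 genes, with the same spread given to every gene. It recovered 200 of them at the spread of the median gene and 0 at the wider spread of the matrix genes. In the data most genes have a narrower spread than the matrix genes, so the last setting differs from the data. No pair of cultures of a dose looked like repeat deposits of 1 library, as the lowest chi-square per degree of freedom over 18 pairs was 18.3.

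Named are all members, the 2 genes of highest mean CPM of each further list, and the 8 genes outside the list most correlated with the members' mean standardised profile, over 12 and over 10 cultures. The value of 1 gene that this rule names is not reported here. Members, lists and tests were chosen with earlier results of these data known. Names and neighbours come from RefSeq GRCr8, and no coordinates or sequences are given. Alternatives were no factor, 2 factors, DESeq2 1.42.0, its size factors in edgeR (edgeR with limma 3.58.1), no filter, a block by letter sets, each culture left out, and G and N left out. The block without G and N was added after the data were seen.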

Additional observations from a re-analysis of the deposited data

Results flagged for a closer look

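In 5 of the 24 groups of 4 cultures tested on log2(CPM + 1), 8 genes at each of 3 doses, the highest culture lay farther from the nearest of the others than Dixon's 95% critical value for 4 samples allows, a level that chance passes in about 1 of 20 groups. The groups are not independent, since N gives 4 of the 5. N was set apart from the outset in these same data, so these flags describe the values and are not separate evidence. In low dose culture N, Col1a1 was at 1265 CPM, where the other 3 low dose cultures had 6.46 to 14.1 CPM, and Col1a2 was at 1359 CPM, where they had 49.4 to 76.8 CPM. Col3a1 in N was at 232.7 CPM and Eln at 69.4 CPM, against at most 4.32 and 3.39 CPM in the other 3. In high dose culture O, Col3a1 was at 22.4 CPM, against 2.56 to 3.32 CPM in C, I and R. Untreated culture G did not pass this level for any gene where it was the culture tested. For Col6a2 and Itga11 the untreated cultures tested were P and A, at the low and the high end. M was also high for Col1a1, Col1a2 and Col5a2, which hides G from a test of 4 values. Not passing therefore does not place G with the others, and for Col3a1 it was 44.4-fold above the next untreated culture.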

How the results depend on the processing

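Of 480 single-gene values under alternatives, 69 changed sign, 27 of them among the 288 with a culture left out; these are changes of direction, not of calls. No member was called under any alternative. Levels in CPM under DESeq2 size factors and set differences with a pseudocount of 0.1 moved by less than their spread in all 48 cases. DESeq2, its size factors in edgeR and no filter on low counts turned no member's sign. Unadjusted p-values under 0.05 were found for 91, 146 and 144 genes in the comparisons of low dose with untreated, high dose with untreated and high with low dose. Genes called numbered 0 in all 3, and 0, 3 and 1 with DESeq2 and 0, 1 and 1 with 2 factors. Between low dose and untreated cultures, log2 fold changes turned without a factor for Col3a1 (-0.69), Col5a1 (-0.21) and Col6a2 (-0.22), and Col6a2 became 0 with 2 factors. With a replicate block by letter sets in place of the factor, they turned for Col1a1 (-0.19), Col1a2 (-0.20), Col3a1 (-0.24), Col5a1 (-0.33), Col5a2 (-0.16) and Col6a2 (-0.22). Without untreated G and low dose N, they turned for Col1a1 (-2.75), Col1a2 (-1.02), Col3a1 (-0.30), Col5a1 (-0.42), Col5a2 (-0.70), Col6a2 (-0.19) and Itga11 (-0.75). With the block and without G and N, Col1a2 (-0.05), Col5a1 (-0.01) and Itga11 (-0.26) turned. Between high dose and untreated cultures, Col3a1 (-3.64) and Eln (-0.30) turned without a factor, Col5a2 (0.01) with 2 factors, and Col3a1 (-1.46) and Eln (-0.37) under the block. With the block and without G and N, Col1a1 (0.07), Col5a1 (0.01), Col5a2 (0.31) and Col6a2 (0.03) turned, and 88 genes were called, none of them a member (lowest adjusted p of a member 0.186). Between high and low dose cultures, all 8 members turned without G and N: Col1a1 (1.62), Col1a2 (0.50), Col3a1 (1.31), Col5a1 (0.25), Col5a2 (0.67), Col6a2 (0.02), Eln (0.59) and Itga11 (1.08), with a median of 0.632. With the block as well, Col1a2 (0.05), Col5a1 (0.02), Col5a2 (0.30), Eln (0.12) and Itga11 (0.91) turned, the median was 0.035 and 35 genes were called, again no member (lowest adjusted p 0.230). The cause of these changes was not tested.

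With each culture left out in turn, the low dose differences from untreated ranged from -2.15 to 3.61 for Col1a1, -0.85 to 1.55 for Col1a2, -0.02 to 3.57 for Col3a1, -0.40 to 0.75 for Col5a1, -0.59 to 1.12 for Col5a2, -0.28 to 0.28 for Col6a2 and -0.42 to 3.75 for Itga11, the lowest without N except for Col6a2, whose lowest was without P. The high dose differences from untreated ranged from -1.92 to 1.46 for Col1a1, -0.72 to 0.08 for Col1a2, -0.03 to 0.82 for Col3a1, -0.41 to 0.35 for Col5a2, -0.49 to 0.06 for Col6a2 and -0.31 to 1.92 for Itga11. High dose differences from low dose ranged from -3.23 to 0.99 for Col1a1, -2.03 to 0.29 for Col1a2, -2.81 to 0.48 for Col3a1, -0.99 to 0.07 for Col5a1, -1.19 to 0.46 for Col5a2, -0.51 to 0.01 for Col6a2, -2.14 to 0.40 for Eln and -3.16 to 0.95 for Itga11, with a median from -2.06 to 0.429, and each was highest, and above 0, only without N. The letters are not replicate numbers, so the block is a description. Depth limits Itga11 in G, P and Q and Eln in P, with 8 counts or fewer.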

Other observations

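Further matrix genes of the lists, picked here after their values were seen, also separated G from N. Higher in G were Col5a3, the remaining type V chain, at 171 CPM in G and 17.4 CPM in N, Fbln1, a fibulin of elastic fibres and basement membranes, at 196 and 30.3 CPM, Fbn1, the fibrillin of elastic microfibrils, at 189 and 69.9 CPM, and Ddr2, a receptor tyrosine kinase for fibrillar collagen, at 76.0 and 20.9 CPM. Higher in N were Mfap4, a partner of elastin, at 281 CPM against 28.5 CPM in G, Fbln5, a fibulin that helps to assemble elastin, at 152 against 36.5 CPM, and Col14a1, a fibril-associated collagen, at 18.1 against 0.519 CPM. Col5a3 in P, Q and R was at 38.8, 36.9 and 29.9 CPM and in A, B and C at 4.37, 6.77 and 5.69 CPM, so the 2 sets did not overlap. Each value is that of 1 culture.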
